A study of Mus musculus with 4 samples.

Results

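CC chemokines are small secreted proteins, named for a pair of adjacent cysteines, that draw leukocytes along a gradient by binding G protein-coupled receptors. Their genes lie in clusters, and neighbouring genes often share receptors: Ccl2 and Ccl7 act through CCR2 and recruit monocytes, Ccl3, Ccl4 and Ccl5 attract lymphocytes and myeloid cells, and Ccl17 and Ccl22 act through CCR4, a receptor of regulatory and type 2 helper T cells. Ccl6 and Ccl9 are rodent chemokines of the CCR1-binding branch. In the lung these proteins are made by macrophages, dendritic cells, lymphocytes and granulocytes.

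The 9 genes Ccl2, Ccl3, Ccl4, Ccl5, Ccl6, Ccl7, Ccl9, Ccl17 and Ccl22 were taken by symbol from the 31055 features of a 3′ single-cell RNA-seq matrix of mouse lung tumors, and all 9 were present. Viable cells, with dead cells left out by DAPI, were sorted from microdissected tumors of 4 female mice, of an age that the labels leave out. The 2 Restored mice carried Lkb1XTR/XTR with the Rosa26LSL-tdTomato/FLPo-ERT2 genotype, and the 2 Non-Restored mice carried Lkb1XTR/XTR with Rosa26LSL-tdTomato. All 4 thus shared a Cre-activated tdTomato reporter and the XTR allele of Lkb1, in which Cre inverts a gene trap that interrupts the gene. Tumors were started by intratracheal Lenti-Cre, grew for 16 weeks, and all 4 mice were given 4 mg doses of tamoxifen over 2 weeks. With tamoxifen the Rosa26-driven FLPo-ERT2 deletes the trap and restores Lkb1, and since Rosa26 is active in nearly all cell types, immune and stromal cells can lose the trap too. Each library was loaded to recover about 8000 cells.

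The matrix held 20351 cells and 58624795 unique molecular identifiers (UMIs, counted mRNA molecules), and 19488 cells with a median of 1949.5 UMIs passed the filters. Cells were assigned to 16 classes by lists of 8 marker genes, none of them a CC chemokine or receptor. T-like cells were split further into 5 subsets by Cd4, Cd8a or Cd8b1, Foxp3 and short lists of effector, naive and gamma-delta T genes, which made 20 classes in all, and 13748 cells (70.5%) fell into a class. Of 32 markers held out of the lists, 25 were highest in the class they check, among them Sftpc in epithelial-like, S100a8 in neutrophil-like, Prf1 in NK-like, Chil3 in alveolar macrophage-like and Il4 in basophil or mast cell-like cells. Ear10 was near 0 in every class, although it counts among the 25. The cDC2-like class was weakly marked, since the held-out Cd209d was at 58.0 CPM (the UMIs of a gene per 1000000 UMIs of the class) in it and at 876 CPM in plasmacytoid DC-like cells. Gzmb, which checks NK-like cells, was at 1242 CPM in them and 1329 CPM in basophil or mast cell-like cells. Serpinb6b, which checks mature DC-like cells, was at 441 CPM in them and 679 CPM in NK-like cells. Irf8 for cDC1-like, Pglyrp1 for non-classical monocyte-like and Fcrla for B-like cells were also higher in another class. The classical monocyte-like class was weakly marked too: F13a1 and Sirpb1c were highest in it, but its other 6 listed markers and the held-out Plac8 were higher in another class, such as Ly6c2 (569 CPM against 1451 CPM in plasmacytoid DC-like cells). No cluster of cells took its name. The basophil or mast cell-like class had the basophil proteases Mcpt8 (3486 CPM) and Prss34 (1823 CPM), while of the mast cell genes Tpsb2 was at 0, Mcpt4 at 7.42, Cma1 at 44.5 and Kit at 74.2 CPM. Cma1 was higher in NK-like cells (355 CPM) and Kit in endothelial-like cells (248 CPM). Cpa3, a mast cell carboxypeptidase gene and a listed marker of the class, went the other way. It was at 1218 CPM in the class and at 1.55 CPM or less in every other. Tpsb2, Mcpt4, Cma1 and Kit were looked up after the values were seen. Median depth per class ran from 883 UMIs in neutrophil-like cells to 5477 in alveolar macrophage-like cells.

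The files analysed here do not tie a cell to its mouse, so the matrix counts as 1 sample without replicates. Restored against Non-Restored was not compared, no p-value is given, and every interval is an exact 95% interval that covers counting error only. Unequal contributions of the 4 mice to the classes cannot be told apart from differences between the classes.

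Of the 9 genes, 7 lie in clusters on chromosome 11 and 2 on chromosome 8 of GRCm38 (GENCODE vM21), and all 9 are protein-coding. Ccl2 (ENSMUSG00000035385, 82035571 to 82037453) and Ccl7 (ENSMUSG00000035373, 82045712 to 82047525) lie on the plus strand of chromosome 11, in the same stretch as Ccl11, Ccl12, Ccl8 and Ccl1. Further along chromosome 11, within 139 kb, come Ccl5 (ENSMUSG00000035042, 83525778 to 83530518), Ccl9 (ENSMUSG00000019122, 83572919 to 83578636), Ccl6 (ENSMUSG00000018927, 83587882 to 83593087) and Ccl3 (ENSMUSG00000000982, 83647844 to 83649355) on the minus strand. Ccl4 (ENSMUSG00000018930, 83662584 to 83664683) closes that cluster on the plus strand. Ccl22 (ENSMUSG00000031779, 94745590 to 94751699) and Ccl17 (ENSMUSG00000031780, 94810453 to 94812036) are on the plus strand of chromosome 8. In the annotated transcripts of these 9 genes, 0 words of 91 bases, the length of the cDNA read, were shared with a transcript of another gene on either strand, so such a read can be told apart between paralogs.

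The sequence before the annotated start is shown for the neighbouring pairs Ccl17 and Ccl22, and Ccl6 and Ccl9, because the results below separate the genes within each pair. Bases are given 5′ to 3′ on the gene's own strand, from RefSeq (GRCm38.p6), and bases that GENCODE places inside the gene were left out. Capitals mark matches, on either strand, to the NF-κB motif, a STAT motif (TTC and GAA with 4 bases between them) or the AP-1 motif TGANTCA. Other spacings of TTC and GAA were not searched.
Ccl17 (chr8:94810203-94810452, plus strand): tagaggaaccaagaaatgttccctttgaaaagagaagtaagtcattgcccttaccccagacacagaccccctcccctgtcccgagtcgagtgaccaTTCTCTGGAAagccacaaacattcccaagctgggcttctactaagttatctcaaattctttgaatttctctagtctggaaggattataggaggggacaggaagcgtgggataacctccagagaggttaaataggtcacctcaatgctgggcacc
Ccl22 (chr8:94745434-94745589, plus strand): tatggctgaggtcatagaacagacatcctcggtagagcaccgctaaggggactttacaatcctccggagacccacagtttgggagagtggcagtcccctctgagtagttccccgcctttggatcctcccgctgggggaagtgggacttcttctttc
Ccl9 (chr11:83578637-83578886, minus strand): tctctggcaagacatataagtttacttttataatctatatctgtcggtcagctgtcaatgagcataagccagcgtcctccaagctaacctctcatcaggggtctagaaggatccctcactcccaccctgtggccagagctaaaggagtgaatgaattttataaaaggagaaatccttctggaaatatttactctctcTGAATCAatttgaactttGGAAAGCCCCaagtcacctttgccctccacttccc
Ccl6 (chr11:83593088-83593337, minus strand): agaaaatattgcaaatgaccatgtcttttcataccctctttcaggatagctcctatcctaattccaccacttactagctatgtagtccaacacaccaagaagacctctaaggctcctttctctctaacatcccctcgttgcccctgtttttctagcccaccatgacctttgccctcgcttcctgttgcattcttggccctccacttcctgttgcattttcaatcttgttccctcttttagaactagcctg

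Ccl17 had 1 match to the STAT motif, which 5.86% of 27025 mouse upstream windows of 250 bases also held. Ccl9 had 1 match to the NF-κB motif and 1 to the AP-1 motif, held by 3.75% and 6.87% of windows. Ccl22 and Ccl6 had 0 matches to these motifs in the bases shown, and the C/EBP motif TTGCNNAA and the IRF motif (GAAA, 2 bases and GAAA again) matched 0 of the 5 members with an entry, the fifth being Ccl3. The upstream windows of Ccl6 and Ccl9 shared the run gccctccacttcc of 13 bases, which began 55 bases before the start of Ccl6 and 14 before that of Ccl9, while their global identity was 47.2%. A match is a description of letters, not of binding.

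By level in CPM, the 9 chemokines fell to 5 leading sources. Basophil or mast cell-like cells led for Ccl3, Ccl4 and Ccl9, and C1q macrophage-like cells for Ccl2 and Ccl7. Mature DC-like cells led for Ccl17 and Ccl22, alveolar macrophage-like cells for Ccl6, and NK-like cells for Ccl5. Epithelial-like cells, the lineage of these lung tumors, gave 50.4 CPM (43.4 to 58.2) for all 9 genes together, and endothelial-like cells 62.6 CPM (54.8 to 71.2). B-like cells, taken as the background of free RNA because none of these chemokines defines them, gave 92.1 CPM (82.3 to 103). The leading class exceeded B-like cells by 111-fold for Ccl2 and by more for the other 8 genes.

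**Figure D1:**
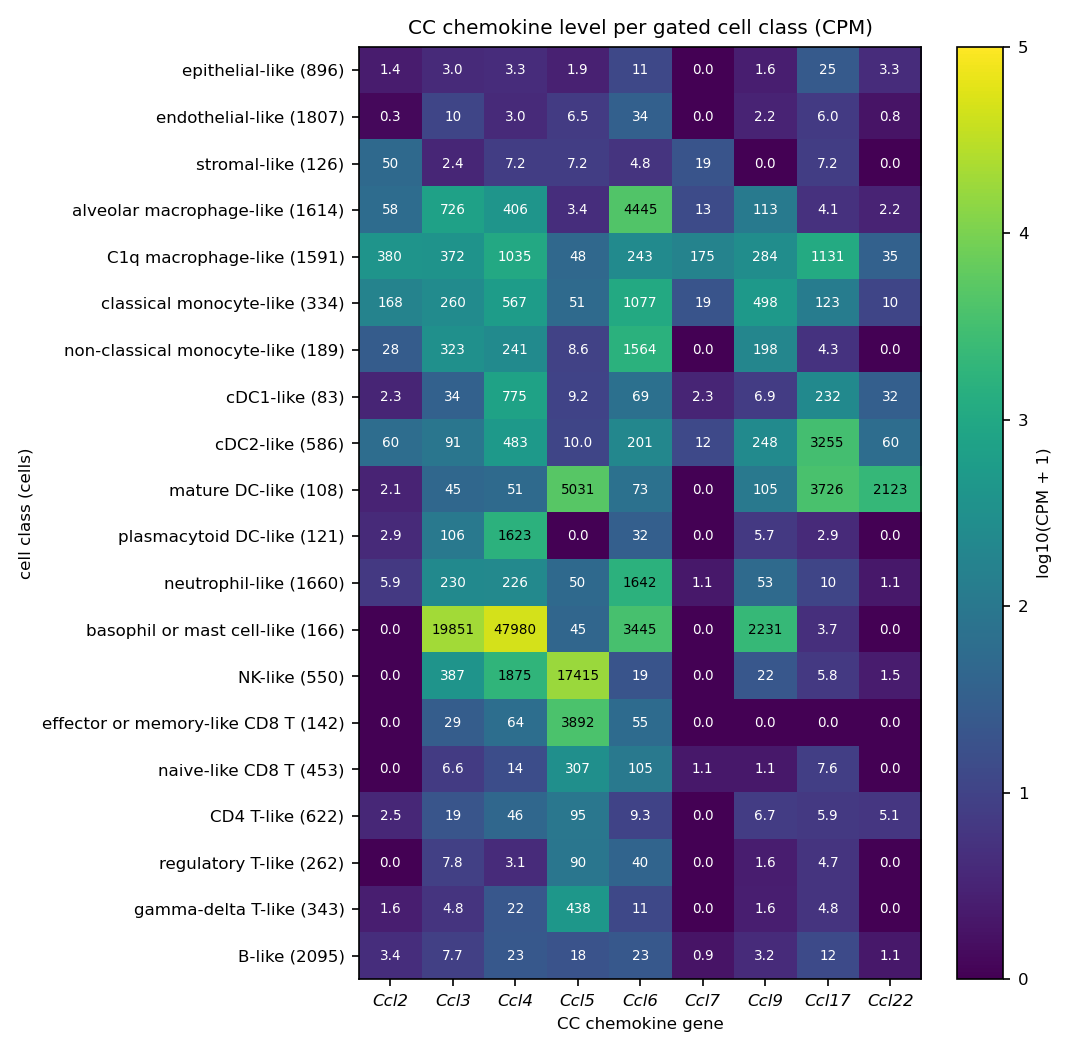
Level of each CC chemokine (columns, CPM printed in each cell, colour on a log10(CPM + 1) scale) in the 20 gated classes (rows, number of cells in brackets). The basophil or mast cell-like row holds the highest values of Ccl3 (19851 CPM), Ccl4 (47980 CPM) and Ccl9 (2231 CPM), and the epithelial-like, endothelial-like and B-like rows stay at or below 33.6 CPM for all 9 genes.

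As a description of how concentrated each gene was, the leading class held at least 50% of the CPM summed over the 20 classes for 6 of the 9 chemokines: Ccl3, Ccl4, Ccl5, Ccl7, Ccl9 and Ccl22. Over all 9956 genes with at least 200 UMIs, 8.04% (800 genes) were that concentrated. The median share of the leading class was 63.3% over the 9 genes and 12.3% over all genes. The shares of Ccl2 (49.6%), Ccl17 (43.5%) and Ccl6 (33.9%) lay below the threshold. These chemokines were chosen because their sources had been seen to differ, so nothing particular to them is read from the counts.

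Ccl3 and Ccl4, inflammatory chemokines that draw lymphocytes, monocytes and NK cells, were highest in the 166 basophil or mast cell-like cells. Ccl3 stood at 19851 CPM (19323 to 20391, 32.2 UMIs per cell) there, and at 726 CPM (708 to 744, 3.93 UMIs per cell) in alveolar macrophage-like cells, the next class, a ratio of 27.4 (26.4 to 28.4). With tdTomato-positive cells outside the epithelium removed, NK-like cells (406 CPM) took the place of alveolar macrophage-like cells as the next class for Ccl3. Ccl4 stood at 47980 CPM (47157 to 48815, 77.9 UMIs per cell), and at 1875 CPM (1774 to 1980) in NK-like cells, the next class, a ratio of 25.6 (24.2 to 27.1). By UMIs per cell, plasmacytoid DC-like cells (4.67) were the next class for Ccl4, above NK-like cells (2.35). Nearly every basophil or mast cell-like cell carried both genes. Thinned to 1000 UMIs, 96.8% of 154 cells (92.6 to 98.9) had a Ccl3 UMI and 98.7% (95.4 to 99.8) a Ccl4 UMI, against 98.8% for each without thinning. In B-like cells the thinned shares were 0.345% (0.127 to 0.749) and 1.32% (0.840 to 1.98), at median depths of 1360 UMIs against 1475.5 in basophil or mast cell-like cells. The highest 10% of cells held 20.7% of the Ccl3 UMIs and 22.4% of the Ccl4 UMIs of the class, so the signal was spread over the class.

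This class was 0.852% of the kept cells and held 38.3% of all Ccl4 UMIs and 27.8% of all Ccl3 UMIs. The 9 chemokines together made up 7.36% of its UMIs (73556 CPM, 72535 to 74587), against 1.97% in NK-like cells and 1.12% in mature DC-like cells, the next classes. UMIs were counted at the 3′ end and not scaled by length, so shares among genes are shares of UMIs.

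Below the basophil or mast cell-like cells, Ccl3 and Ccl4 had different orders. For Ccl3, alveolar macrophage-like cells exceeded NK-like cells (387 CPM, 342 to 437) by 1.87-fold (1.66 to 2.12). NK-like and C1q macrophage-like cells (372 CPM, 357 to 387) were not told apart, with a ratio of 1.04 (0.915 to 1.18). Non-classical monocyte-like cells (323 CPM, 273 to 379), classical monocyte-like cells (260 CPM, 231 to 292) and neutrophil-like cells (230 CPM, 209 to 253) followed, each with an interval that overlapped its neighbour's. For Ccl4, plasmacytoid DC-like cells, the producers of type I interferon, came after NK-like cells at 1623 CPM (1492 to 1763, from 565 UMIs in 121 cells), and were 1.57-fold (1.44 to 1.71) above C1q macrophage-like cells (1035 CPM, 1011 to 1060). cDC1-like cells, which present antigen to CD8 T cells, had 775 CPM (694 to 862), 1.60-fold (1.42 to 1.81) above cDC2-like cells (483 CPM, 459 to 509). For Ccl3 the same comparison went the other way, with 34.4 CPM in cDC1-like and 90.9 CPM in cDC2-like cells, a ratio of 0.378 (0.209 to 0.635).

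The UMI ratio of Ccl4 to Ccl3 therefore varied between classes. It was 2.42 (2.34 to 2.50) in basophil or mast cell-like cells and 2.78 (2.66 to 2.92) in C1q macrophage-like cells, 4.84 (4.24 to 5.54) in NK-like cells, and 22.5 (13.5 to 40.7) in cDC1-like cells. In alveolar macrophage-like cells it was 0.560 (0.537 to 0.583) and in neutrophil-like cells 0.979 (0.854 to 1.12). Alveolar macrophage-like cells thus had the lowest ratio among the 11 classes with 100 or more UMIs of the pair, and non-classical monocyte-like cells the next lowest (0.747, 0.579 to 0.960).

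**Figure D2:**
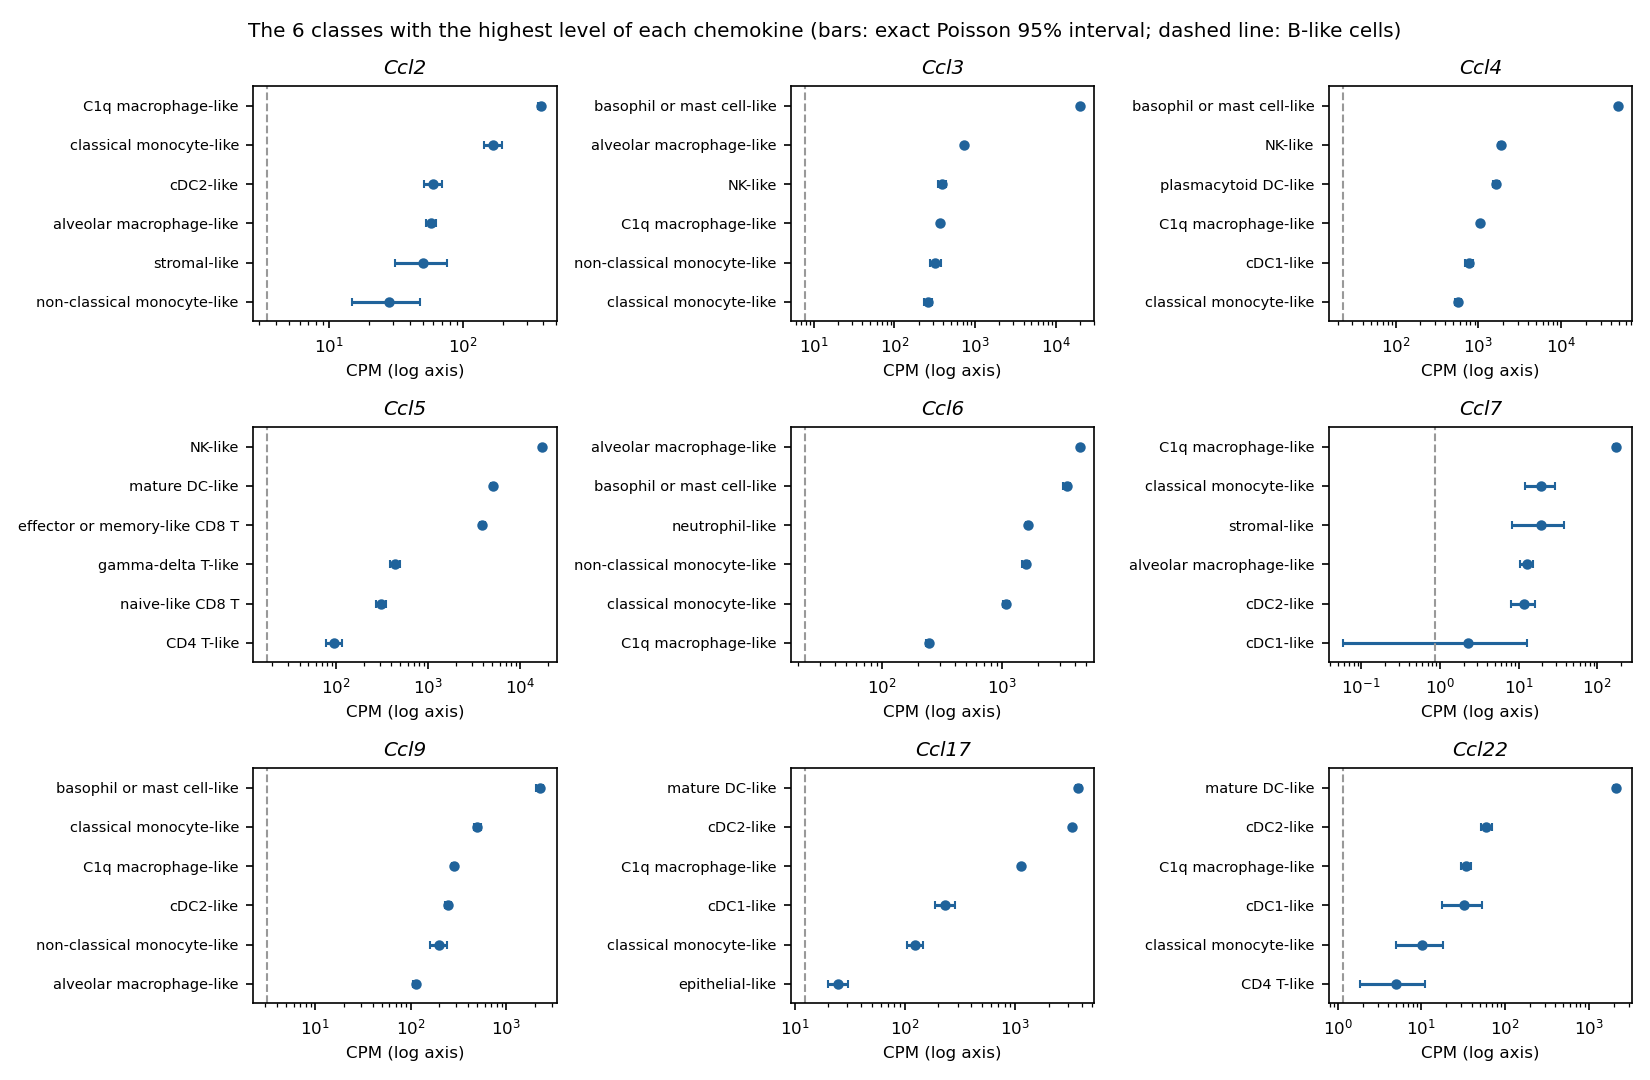
The 6 classes with the highest CPM of each chemokine (points, log axis), with exact Poisson 95% intervals (bars, often narrower than the point) and the level of B-like cells (dashed line). Ccl3, Ccl4 and Ccl22 drop by at least 25.6-fold from the first class to the next, while Ccl6 and Ccl17 drop by 1.29-fold or less.

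Within neutrophil-like cells, short-lived granulocytes, Ccl3 and Ccl4 were not spread evenly. The cells were also clustered on variable genes without the CC chemokines and their receptors, and 1391 neutrophil-like cells fell in 1 cluster and 164 in another of the same name. In those 164 cells Ccl3 was at 1441 CPM (1253 to 1648) and Ccl4 at 1298 CPM (1121 to 1496), against 124 CPM (106 to 143) and 96.2 CPM (80.6 to 114) in the 1391 cells. Ccl6 went the other way, at 802 CPM (664 to 960) and 1891 CPM (1820 to 1965). These values cover only cells that passed the neutrophil-like gate. Over all 234 cells of the smaller cluster and all 1427 of the larger, Ccl6 was closer, at 1614 and 1872 CPM. Ccl3 was at 2935 and 123 CPM there. The median depths, 794.5 and 865 UMIs, were close. Besides Ccl4 and Ccl3, the genes furthest above the larger cluster were Clec4n, Bcl2a1a, Bcl2a1b, Cdkn1a and Tnf, the gene of tumor necrosis factor (618 against 86.2 CPM). The mitochondrial transcripts mt-Nd1 (1019 against 207 CPM) and mt-Nd2 (918 against 192 CPM) were higher in the 164 cells as well, and their part in the Ccl3 and Ccl4 difference was not tested. S100a8 was at 23162 CPM in the 164 cells and at 87609 CPM in the 1391 cells. These clusters and genes were singled out after their values were seen.

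Ccl9, a CCR1 ligand, was also highest in basophil or mast cell-like cells, at 2231 CPM (2056 to 2417, from 601 UMIs). The next class, classical monocyte-like cells, had 498 CPM (457 to 542), a ratio of 4.48 (3.98 to 5.04). Per cell the values were closer, with 3.62 and 1.62 Ccl9 UMIs. C1q macrophage-like cells followed at 284 CPM (271 to 297), 1.14-fold (1.05 to 1.25) above cDC2-like cells (248 CPM, 231 to 267). That order depended on cells with markers of both classes. Ccl9 was at 158 CPM (127 to 193) in the 187 C1q macrophage-like cells without a cDC2 marker and at 296 CPM in the other 1404. In cDC2-like cells without and with a C1q macrophage marker it was at 165 and 283 CPM. Alveolar macrophage-like cells had 113 CPM (106 to 120), 2.52-fold (2.33 to 2.72) below C1q macrophage-like cells. Thinned shares followed the levels, with 81.2% of basophil or mast cell-like cells (74.1 to 87.0), 41.0% of classical monocyte-like cells (35.7 to 46.6) and 9.07% of alveolar macrophage-like cells (7.70 to 10.6) holding a UMI, against 0.345% of B-like cells. Because that class was rare, most Ccl9 UMIs lay elsewhere: 29.0% in C1q macrophage-like cells, 15.2% in alveolar macrophage-like cells and 9.26% in basophil or mast cell-like cells.

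Ccl6, the neighbour of Ccl9, had alveolar macrophage-like cells as its leading class, with 4445 CPM (4401 to 4490, 24.1 UMIs per cell) and 67.7% of all Ccl6 UMIs. Basophil or mast cell-like cells were next at 3445 CPM (3227 to 3674), a ratio of 1.29 (1.21 to 1.38). Neutrophil-like cells (1642 CPM, 1584 to 1701) and non-classical monocyte-like cells (1564 CPM, 1452 to 1682) were not told apart, with a ratio of 1.05 (0.968 to 1.14), and classical monocyte-like cells had 1077 CPM (1016 to 1140). Thinned to 1000 UMIs, 89.7% of alveolar macrophage-like (88.1 to 91.2), 83.1% of basophil or mast cell-like (76.2 to 88.7) and 1.26% of B-like cells had a UMI. Neutrophil-like cells, thinned to 500 UMIs because they are shallow, had a share of 49.5% (47.0 to 51.9), beside 77.1% (75 to 79.2) of alveolar macrophage-like cells at the same depth.

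The monocyte-like classes carried some alveolar macrophage genes, with Chil3 at 6763 CPM in classical and 10041 CPM in non-classical monocyte-like cells, and Ccl6 moved with them. In classical monocyte-like cells Ccl6 was at 759 CPM (699 to 822) in 266 cells without a UMI of an alveolar macrophage marker and at 1905 CPM (1752 to 2067) in the other 68, at median depths of 2875 and 4604 UMIs. In non-classical monocyte-like cells it was at 534 CPM (452 to 628) in 136 such cells and 3081 CPM (2835 to 3343) in the other 53, at 1712 and 2923 UMIs. The part of alveolar macrophage RNA in these levels was not tested. The UMI ratio of Ccl6 to Ccl9 was 39.5 (37.1 to 42.1) in alveolar macrophage-like cells and 30.7 (25.2 to 37.9) in neutrophil-like cells, but 1.54 (1.39 to 1.71) in basophil or mast cell-like cells and below 1 in C1q macrophage-like (0.857, 0.801 to 0.916) and cDC2-like cells (0.811, 0.726 to 0.905).

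Most alveolar macrophage-like cells carried the Cre reporter: 1447 of 1614 had at least 3 TdTomato UMIs and 86 had 0. Ccl6 was lower in the reporter-positive cells (4350 against 5748 CPM, a log2 ratio of -0.40, -0.46 to -0.34). Ccl3 was higher (740 against 396 CPM, 0.90, 0.67 to 1.14), and so was Ccl4 (415 against 317 CPM, 0.39, 0.13 to 0.66). The intervals of Ccl2, Ccl5, Ccl7, Ccl9 and Ccl17 held 0, and Ccl22 had 0 UMIs in reporter-negative cells. The median depths were 5505 and 5354.5 UMIs. The alveolar macrophage genes Chil3 (-0.38), Ear2 (-0.32), Atp6v0d2 (-0.30) and Lyz2 (-0.31) had log2 ratios of a size like that of Ccl6, and their part in the Ccl6 difference was not tested.

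Ccl2 and Ccl7, the monocyte chemoattractants, were highest in C1q macrophage-like cells, a class of tissue macrophages defined by complement C1q genes. Ccl2 was at 380 CPM (366 to 396, from 2525 UMIs) in them and at 168 CPM (145 to 194) in classical monocyte-like cells, a ratio of 2.26 (1.95 to 2.64). cDC2-like cells (59.7 CPM, 51.2 to 69.3), alveolar macrophage-like cells (57.9 CPM, 53.0 to 63.2) and stromal-like cells (50.1 CPM, 31.0 to 76.5) had overlapping intervals. Ccl7 was at 175 CPM (165 to 185) in C1q macrophage-like cells, 9.05-fold (5.89 to 14.7) above classical monocyte-like cells (19.3 CPM, 11.95 to 29.5, from 21 UMIs), which stromal-like cells matched within their interval (19.1 CPM, 8.23 to 37.6, from 8 UMIs). Alveolar macrophage-like cells had 12.7 CPM (10.4 to 15.3), 13.8-fold (11.3 to 16.9) less than C1q macrophage-like cells.

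Fewer C1q macrophage-like cells carried these genes than carried the leading genes of other classes. After thinning 19.7% (17.8 to 21.7) had a Ccl2 UMI and 8.6% (7.26 to 10.1) a Ccl7 UMI, against 37.3% and 14.4% without thinning at a median of 3994 UMIs, and 0.115% and 0.172% of thinned B-like cells. The highest 10% of the cells held 66.3% of the Ccl2 UMIs and 94.1% of the Ccl7 UMIs of the class. C1q macrophage-like cells held 62.0% of all Ccl2 UMIs and 78.6% of all Ccl7 UMIs. Ccl2 had 0 UMIs in basophil or mast cell-like cells, which allows up to 11.1 CPM, and 0 in NK-like cells, which allows up to 4.35 CPM.

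Ccl17 and Ccl22, ligands of CCR4, were highest in the 108 mature DC-like cells, the migratory dendritic cells that also carry Ccr7 (2196 CPM). Ccl22 was at 2123 CPM (1993 to 2259, from 992 UMIs) in them and at 60.0 CPM (51.5 to 69.6) in cDC2-like cells, the next class, a ratio of 35.4 (30.1 to 41.8). C1q macrophage-like cells (34.5 CPM, 30.2 to 39.3) and cDC1-like cells (32.1 CPM, 17.5 to 53.8) were not told apart. The 108 cells, 0.554% of the kept cells, held 50.4% of all Ccl22 UMIs.

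Ccl17 was high in 3 classes. Mature DC-like cells had 3726 CPM (3553 to 3905) and cDC2-like cells 3255 CPM (3190 to 3321), a ratio of 1.14 (1.09 to 1.20), and C1q macrophage-like cells 1131 CPM (1106 to 1157). Per cell the order of the first 2 classes turned, with 16.1 Ccl17 UMIs in mature DC-like and 16.2 in cDC2-like cells. Their log2 ratio of 0.19 in CPM also moved with the lineage rule. It was 0.77 with at most 1 marker of another lineage allowed and 0.13 with any smaller number allowed. The mature DC-like class was small and held fewer of the UMIs than the other 2 classes. Of 31265 Ccl17 UMIs in kept cells, 1741 lay in mature DC-like, 9486 in cDC2-like and 7508 in C1q macrophage-like cells. Thinned shares were 67.6% of mature DC-like (57.9 to 76.3), 63.6% of cDC2-like (59.6 to 67.5) and 24.2% of C1q macrophage-like cells (22.1 to 26.4), against 0.977% of B-like cells (0.570 to 1.56). For Ccl22 the shares of mature DC-like and cDC2-like cells were 68.5% (58.9 to 77.1) and 3.26% (1.97 to 5.04). The UMI ratio of Ccl17 to Ccl22 was accordingly 1.76 (1.62 to 1.90) in mature DC-like, 54.2 (46.7 to 63.3) in cDC2-like and 32.8 (28.7 to 37.6) in C1q macrophage-like cells.

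The Ccl17 of C1q macrophage-like cells came from some of them. Of the 1591 cells, 987 fell in a cluster that was named C1q macrophage-like by the same lists and 514 in a cluster named cDC2-like. Ccl17 was at 44.7 CPM (38.2 to 52.1) in the 987 cells and at 2689 CPM (2626 to 2754) in the 514 cells, which held 90.1% of the Ccl17 UMIs of the class. Ccl2 and Ccl7 had the opposite order, with Ccl2 at 525 CPM (502 to 549) and 159 CPM (144 to 175), and Ccl7 at 293 CPM (276 to 311) and 16.7 CPM (12 to 22.6). Both sets of cells carried C1qa, the gene of a complement C1q chain (5789 and 2936 CPM). Apoe, a lipid transport gene held out of the lists, was at 10460 CPM in the 987 cells and 162 CPM in the 514. The same split was seen with markers: the 187 C1q macrophage-like cells without a UMI of any cDC2 marker had 65.1 CPM of Ccl17 (46.0 to 89.3) and the other 1404 had 1234 CPM (1206 to 1263), at median depths of 3089 and 4094 UMIs.

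Among cDC2-like cells, those with a C1q macrophage marker had more Ccl17 (3905 CPM, 3820 to 3992, in 395 cells) than those without (1704 CPM, 1618 to 1794, in 191 cells), at median depths of 5011 and 4002 UMIs. By cluster, the 406 cDC2-like cells of the cDC2-like cluster had 3990 CPM (3906 to 4075), and 140 that clustered with cDC1-like cells had 359 CPM (309 to 414). Of all Ccl17 UMIs, 22.1% lay in cells with markers of several lineages and 16.2% in mononuclear phagocytes with a tie between classes, where the level was 1887 CPM. The listed epithelial marker Epcam was at 706 CPM in cDC2-like and 306 CPM in epithelial-like cells. Its part in the cells with markers of several lineages was not tested.

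**Figure D3:**
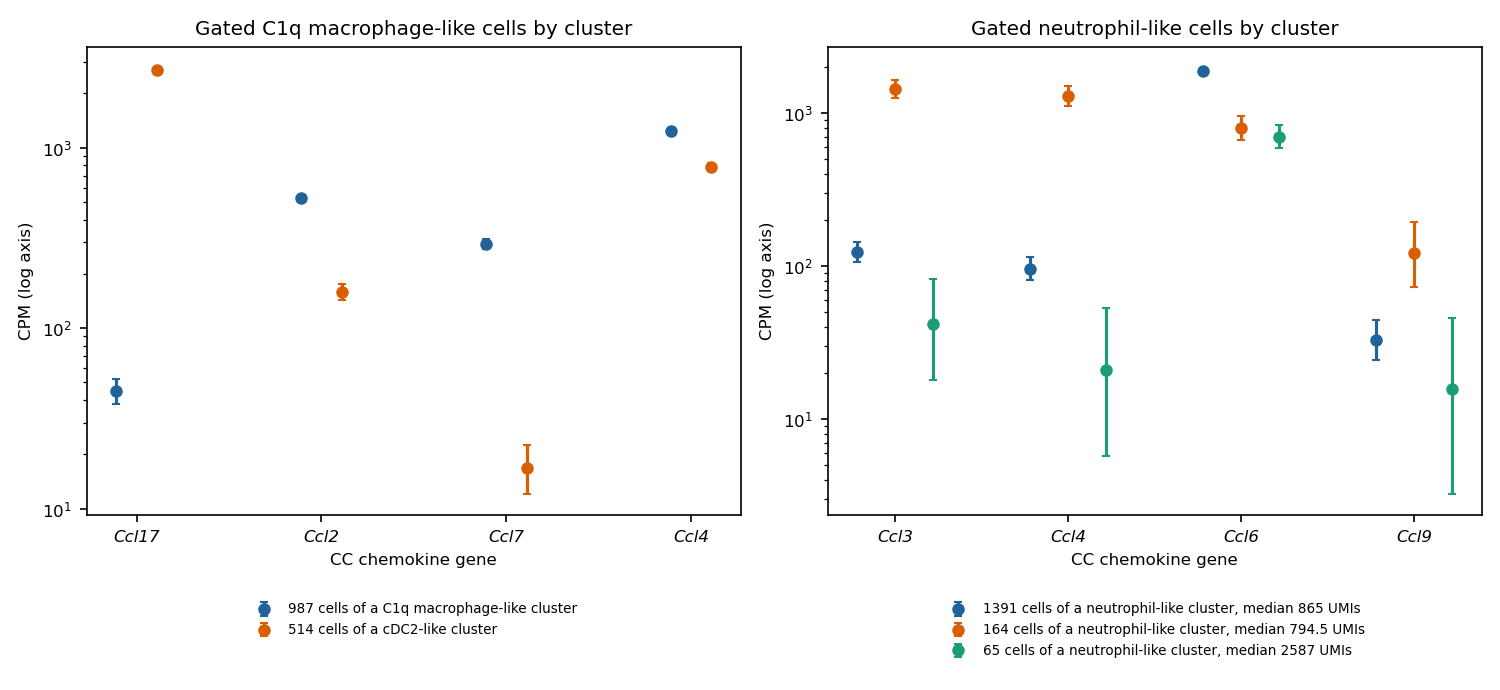
CPM (log axis, points) with exact Poisson 95% intervals (bars) of 4 chemokines in gated C1q macrophage-like cells (left) and neutrophil-like cells (right), split by the cluster the cells fell in. Ccl17 is higher and Ccl2 and Ccl7 are lower in the 514 C1q macrophage-like cells of the cDC2-like cluster, and Ccl3 and Ccl4 are higher in 164 neutrophil-like cells than in the other 1391 and 65.

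Ccl5, a chemokine of cytotoxic lymphocytes that acts through receptors such as CCR1 and CCR3, was highest in NK-like cells at 17415 CPM (17105 to 17729), and these 550 cells held 57.0% of all Ccl5 UMIs. Mature DC-like cells were next at 5031 CPM (4830 to 5239), a ratio of 3.46 (3.31 to 3.62). The mature DC-like cells are deeper, with a median of 4122.5 against 1137.5 UMIs, and per cell the levels were 21.8 UMIs in both. Effector or memory-like CD8 T cells had 3892 CPM (3676 to 4117), 1.29-fold (1.21 to 1.39) below mature DC-like cells and 12.7-fold (11.1 to 14.5) above naive-like CD8 T cells (307 CPM, 272 to 345). These CD8 classes were told apart by whether more genes of the effector list (Nkg7, Cxcr6, Gzmk, Id2, Cxcr3) or of the naive list were detected. Gamma-delta T-like cells had 438 CPM (388 to 492), and CD4 T-like (95.1 CPM, 78.4 to 114) and regulatory T-like cells (89.9 CPM, 68.3 to 116) had overlapping intervals.

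A Ccl5 UMI was found in 97.5% of thinned NK-like cells (95.3 to 98.8), 69.4% of mature DC-like cells (59.8 to 77.9), 30.8% of effector or memory-like CD8 T cells (23.1 to 39.4) and 0.632% of B-like cells (0.316 to 1.13). The highest 10% of cells held 24.9% of the Ccl5 UMIs in NK-like cells, 40.4% in mature DC-like cells and 65.5% in effector or memory-like CD8 T cells. Among the other dendritic classes Ccl5 was low, with 9.95 CPM in cDC2-like cells, under the 17.8 CPM of B-like cells, and 0 UMIs in plasmacytoid DC-like cells. Plasmacytoid DC-like cells, which lacked Ccl5, had 91.6% of their UMIs of the 9 genes in Ccl4.

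**Figure D4:**
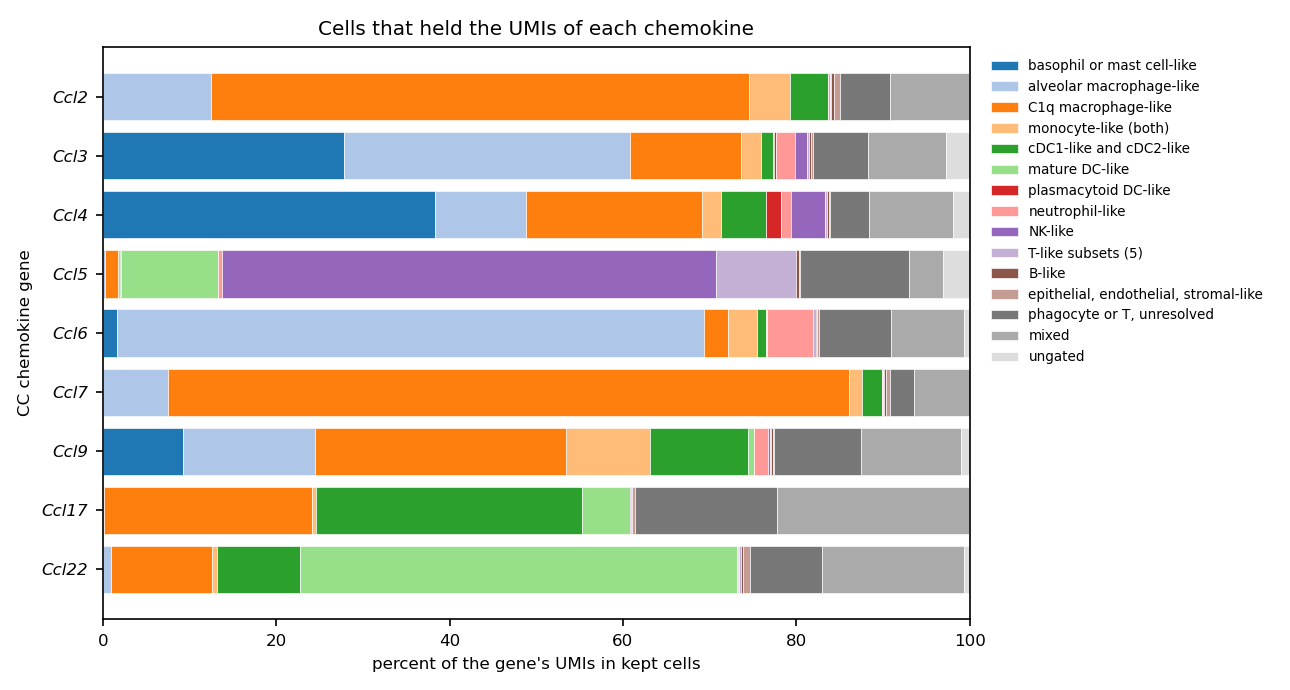
Percent of the UMIs of each chemokine in kept cells (x axis) that lay in each cell class or group of classes (colours), with unresolved, mixed and ungated cells in grey. Alveolar macrophage-like cells hold 33.0% of Ccl3 UMIs although basophil or mast cell-like cells have the higher level, and only 61.4% of Ccl17 UMIs lie inside the 20 classes.

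Over all cells in the classes, alveolar macrophage-like cells held 36.3% of the UMIs of the 9 genes, mostly Ccl6 (77.0% of theirs), C1q macrophage-like cells 17.7% and basophil or mast cell-like cells 14.3%. The UMIs of C1q macrophage-like cells were led by Ccl17 (30.6%) and Ccl4 (28.0%), but most of that Ccl17 lay in cells that clustered as cDC2-like. In the cluster named C1q macrophage-like, Ccl17 was at 53.4 CPM, below Ccl4 (1225 CPM), Ccl2 (526 CPM) and Ccl7 (295 CPM). NK-like cells were led by Ccl5 (88.3%) and Ccl4 (9.50%), and mature DC-like cells by Ccl5 (45.1%) and Ccl17 (33.4%). Between 61.4% (Ccl17) and 90.9% (Ccl7) of a gene's UMIs lay in the 20 classes. For Ccl5, 12.2% lay in T or lymphoid cells whose subset was not resolved.

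Co-detection was examined within classes because 2 genes can share a class without sharing cells. In C1q macrophage-like cells thinned to 1000 UMIs, 27.8% of the 309 cells with a Ccl2 UMI (22.9 to 33.2) also had Ccl7, against 3.89% of those without (2.89 to 5.11). Ccl4 was found in 66.4% of cells with Ccl3 (60.9 to 71.5) and in 26.7% of those without (24.3 to 29.3) in that class. In alveolar macrophage-like cells these shares were 34.0% (30.2 to 37.9) and 11.8% (9.86 to 14), in NK-like cells 65.8% (54.0 to 76.3) and 35.3% (29.8 to 41.2), and in neutrophil-like cells thinned to 500 UMIs 28.4% (18.5 to 40.1) and 3.34% (2.51 to 4.35). In mature DC-like cells Ccl22 was found in 78.1% of the cells with Ccl17 (66.9 to 86.9) and in 48.6% of those without (31.4 to 66.0). Ccl5 showed no such difference there: Ccl22 was in 69.3% of cells with Ccl5 (57.6 to 79.5) and 66.7% of those without (48.2 to 82.0). Ccl6 and Ccl9 were likewise not told apart in alveolar macrophage-like cells, where 9.12% of cells with Ccl6 (7.67 to 10.7) and 8.64% of those without (4.81 to 14.1) had Ccl9. In basophil or mast cell-like cells nearly all cells had both Ccl3 and Ccl4 (149 of 154), so the 5 cells without Ccl3 left the share among them open between 14.7% and 94.7%. In mature DC-like cells Ccl17 was in 62.7% of cells with Ccl5 and 78.8% of those without, the opposite direction, with overlapping intervals. Intervals also overlapped for Ccl5 in NK-like cells with and without Ccl4 (99.3% and 96.2%). The same held for Ccl9 in basophil or mast cell-like cells with and without Ccl6 (85.2% and 61.5%). In cDC2-like cells Ccl22 was in 4.85% of cells with Ccl17 and 0.472% of those without, and the intervals were apart. Shares for further gene pairs were not computed. The C1q macrophage-like and neutrophil-like classes each held clusters with different levels of genes of the pairs examined in them, and co-detection was not examined within those clusters.

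**Figure D5:**
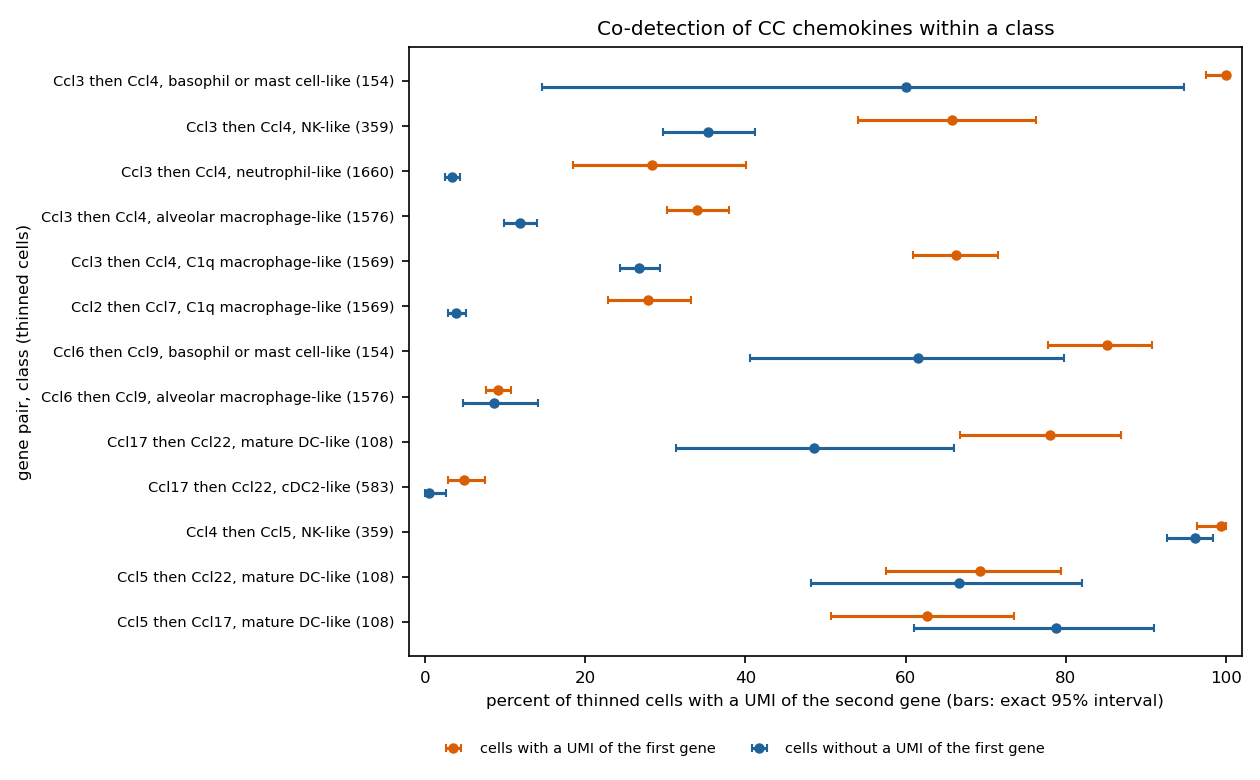
Percent of thinned cells with a UMI of the second gene (x axis) among cells with (orange) and without (blue) a UMI of the first gene, for 13 gene pairs and classes (rows, thinned cells in brackets). Bars are exact 95% intervals, and the Ccl2 and Ccl7 pair in C1q macrophage-like cells is at 27.8% and 3.89%.

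The genes most like each chemokine across the 20 classes were found by Pearson's r of log2(CPM + 10) over 9828 genes, which describes classes of the same libraries and carries no test. Ccl3 and Ccl4 were most like each other (r = 0.903), and Ccl7 was the second most like Ccl2 (0.905). For Ccl2 the first was Abca9 (0.962) and the third Mmp12, a macrophage elastase (0.858). For Ccl7 the first 3 were Plau (0.933), Kcnk13 (0.911) and Ccl8 (0.905). Osm, the cytokine oncostatin M, was among the 3 most like genes of both Ccl3 (0.888) and Ccl9 (0.925), with 2517 CPM in basophil or mast cell-like cells. The other 2 for Ccl9 were Lilr4b (0.882) and Lilrb4a (0.879), and the third for Ccl3 was Lhfpl4 (0.880). For Ccl4 the next were Plek (0.836) and Fcer1g (0.832), and for Ccl5 Gtpbp1 (0.879), AW112010 (0.845) and Stat4 (0.785). For Ccl6 they were Pygl (0.936), Lilr4b (0.922) and C5ar1, the C5a receptor (0.910). For Ccl17 they were Ppp1r1a (0.95), H2-M2 (0.931) and Flrt3 (0.915), and for Ccl22 Il12b, an interleukin-12 subunit (0.911), Tmem39a (0.890) and Tspan33 (0.889).

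Of 11 other CC chemokines, 5 had at least 200 UMIs in the classes and 3 of these 5 had a leading class with at least 50% of the summed CPM. Over all 9956 genes with at least 200 UMIs, 8.04% had such a class. Ccl8 (232 CPM, 220 to 244) and Ccl12 (272 CPM, 259 to 285), which lie in the same cluster as Ccl2 and Ccl7, were also highest in C1q macrophage-like cells, and the next classes had 14.3 and 12 CPM. Ccl21a, the lymphatic CCR7 ligand, was at 226 CPM (211 to 242) in endothelial-like cells. Ccl25 and Ccl27a had no class above 50% of the summed CPM. Of the 6 under 200 UMIs, Ccl11, or eotaxin, was at 88.2 CPM (62.1 to 122) in stromal-like cells from 37 UMIs, and Ccl19 had 0 UMIs.

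Of 13 receptors, 7 had at least 200 UMIs and 3 of these passed the 50% share, as did 8.04% of all 9956 genes. Ccr1, a receptor of Ccl3, Ccl5, Ccl6 and Ccl9, was highest in neutrophil-like cells (1037 CPM, 991 to 1084). Ccr2, the receptor of Ccl2 and Ccl7, was highest in classical monocyte-like cells (791 CPM, 739 to 845). Ccr4, the receptor of Ccl17 and Ccl22, had only 65 UMIs in the classes, and regulatory T-like cells were highest at 29.5 CPM (17.7 to 46.0) from 19 UMIs. Ccr7 led in mature DC-like cells (2196 CPM, 2063 to 2334) and Ackr2, a decoy receptor of inflammatory CC chemokines, in endothelial-like cells (84.3 CPM, 75.1 to 94.2).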

How the data were processed

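Viable cells of lung tumors from 4 mice were profiled with 10x Genomics 3′ v3 chemistry. The deposited counts are whole UMIs per gene and cell, which the authors obtained by Cell Ranger (version 3.0.2 in the matrix header; mm10 with GFP and TdTomato features added), joining the 4 libraries in 1 matrix. Neither the labels nor the methods say if deeper libraries were thinned for the joint matrix. No barcodes were at hand, so those shared between libraries were not counted.

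Cells with at least 200 genes, at most 2713 genes and at most 13.4% mitochondrial UMIs (98th percentiles) were kept. A cell entered a class with at least 2 of 8 markers when any other lineage had at most 1/2 as many detected, and ties were left unresolved. The study's removal of non-epithelial cells with tdTomato was tried as an alternative. Doublets were kept: Scrublet's own threshold marked 94 cells (0.482%), too few to have worked. UMIs were summed per class and scaled to CPM. Intervals are exact (Poisson, Clopper-Pearson and conditional binomial), and the limit for a count of 0 is 3 UMIs. For shares, cells with at least 1000 UMIs were each drawn down to that number (500 for neutrophil-like cells). Clusters (Seurat 5.3.0, 2000 variable genes, 25 dimensions, resolution 1) were made without CC chemokines and their receptors.

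The text names all members, fixed lists of other CC chemokines and receptors, and for each member the 3 genes of highest r. Members and lists were chosen with earlier results of these data known. Python 3.11.15, scipy 1.17.1, scanpy 1.11.5 and R 4.3.3 were used, and the scripts were tested on simulated data. A further allele that all 4 mice shared and 1 receptor of the list are not reported here.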

Additional observations from a re-analysis of the deposited data

How the results depend on the processing

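No paired analysis was possible because the files analysed here do not tie a cell to its mouse, although the groups share replicate numbers, and for the same reason no replicate could be left out. The leading class was kept for 9 of 9 genes under every alternative but UMIs per cell, where it was kept for 8: Ccl17 turned to cDC2-like cells (a log2 ratio of mature DC-like over cDC2-like cells of -0.0060). Leading and second class were both kept for 6 to 9 genes under the other settings (7 with tdTomato-positive cells outside the epithelium removed, 6 by UMIs per cell) and for 5 by Louvain clusters. No cluster was named classical monocyte-like, so the second class of Ccl2, Ccl7 and Ccl9 could not be kept by clusters. For Ccl4, plasmacytoid DC-like cells replaced NK-like cells as the second class by UMIs per cell and by clusters (1694 against 1142 CPM). Per cell, the log2 lead of NK-like over mature DC-like cells for Ccl5 was 0.0035, and that of alveolar macrophage-like over basophil or mast cell-like cells for Ccl6 was 2.11, while that of basophil or mast cell-like over classical monocyte-like cells for Ccl9 fell to 1.16 from 2.16. With tdTomato-positive cells outside the epithelium removed, the lead of basophil or mast cell-like over alveolar macrophage-like cells for Ccl3 was 5.67, and NK-like cells became the second class. At a share of at least 75% of the summed CPM, 3 of the 9 genes and 4.15% of all genes passed, and with genes of at least 50 UMIs 6 and 11.9%. Thinned to 500 UMIs, 8 genes kept the class with the highest share, and Ccl17 turned to cDC2-like cells (54.9%). Thinned to 2000 UMIs, 6 genes kept the class with the highest share, since under 30 basophil or mast cell-like cells were that deep. The margin of 2 markers, the C1q macrophage-like cells without a cDC2 marker and the removal of the 1169 highest Scrublet scores were added after seeing the data. Depth limits genes near 3 UMIs in a class.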
